A study of Macaca mulatta with 449 samples.

Results

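The subunit genes of complexes I and IV carried by mitochondrial DNA are ND1, ND2, ND3, ND4, ND4L, ND5, ND6, COX1, COX2 and COX3. Of these 10 genes 1 could be followed among the 30807 rows of the count table, ND3, through its identifier ENSMMUG00000028680. The names of the other 9 could not be tied to rows of the table, so ND1, ND2, ND4, ND4L, ND5, ND6, COX1, COX2 and COX3 were not analysed here, and the contrast of ND3 with them was not made. ND3 was selected on its measured counts, which were very low in some animals, so its difference between animals is given as a description without a test. Its differences between brain regions within an animal were not used for that choice and were tested.

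RNA was sequenced after ribosomal RNA removal from brains of 8 rhesus macaques (Macaca mulatta), with 1 library per animal for each of 51 sub-regions. Midbrain libraries of the same 8 animals were not analysed here. Rhesus 2 and Rhesus 3 were males of 10 years, and Rhesus 7 and Rhesus 8 were males of 4 and 3.8 years. Rhesus 6 and Rhesus 11 were females of 10 and 9.8 years, and Rhesus 4 and Rhesus 10 were females of 3.2 and 5 years. The labels give no treatment and no genetic change. The cerebral cortex held 31 sub-regions, and the other 20 fell into 15 region groups.

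ND3 encodes a small membrane subunit of complex I, the NADH dehydrogenase that passes electrons from NADH to ubiquinone and pumps protons across the inner mitochondrial membrane. The ND genes encode complex I subunits and the COX genes encode subunits of complex IV, the cytochrome c oxidase that reduces oxygen. These mRNAs are cut from long transcripts of the circular mitochondrial genome, whereas most subunits of both complexes come from nuclear genes and are imported. Neurons depend strongly on this chain for ATP.

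Libraries held 7784678 to 31083490 counts on genes, with a median of 10698600, and no column of the table repeated another. Levels are CPM, the share of a gene in all counts of its library written at a common library size, on totals scaled by the TMM method of edgeR. Marker genes fixed for 7 non-cortical region groups had their highest summed level in the labelled group in 7 of 7 cases. For cortex, the reference of every regional comparison, the summed level of NEUROD6, TBR1 and SLC17A7 was highest in the hippocampus, at a mean of 1672 CPM, and cortex ranked 4, at 901 CPM. One library stood apart in ND3, the caudate nucleus of Rhesus 7, and the regional fits that it enters were repeated without it. In tissue samples, a smaller share of cells rich in a transcript and less of the transcript in each cell cannot be told apart.

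ND3 was abundant throughout the brain in 3 animals and scarce in the other 5. In Rhesus 2 the 51 libraries lay between 276 and 1638 CPM with a median of 775. In Rhesus 3 they lay between 262 and 1719 with a median of 701, and in Rhesus 8 between 294 and 2285 with a median of 687. The ranges of these 3 animals overlapped. Their order changed from one sub-region to another, Rhesus 2 being above Rhesus 3 in 35 of 51 sub-regions and Rhesus 3 above Rhesus 8 in 23.

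In Rhesus 10 ND3 lay between 1.89 and 19.7 CPM with a median of 6.55, and in Rhesus 11 between 1.51 and 10.9 with a median of 5.21. In Rhesus 4 it lay between 0.36 and 8.41 with a median of 2.91. In Rhesus 6 it lay between 0.22 and 8.33 with a median of 1.51, and in Rhesus 7 between 0.088 and 78.2 with a median of 1.32. Within these 5 animals the ranges of neighbours in the order overlapped. Rhesus 10 was above Rhesus 11 in 40 of 51 sub-regions, Rhesus 11 above Rhesus 4 in 42, Rhesus 4 above Rhesus 6 in 41, and Rhesus 6 above Rhesus 7 in 29.

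**Figure D1:**
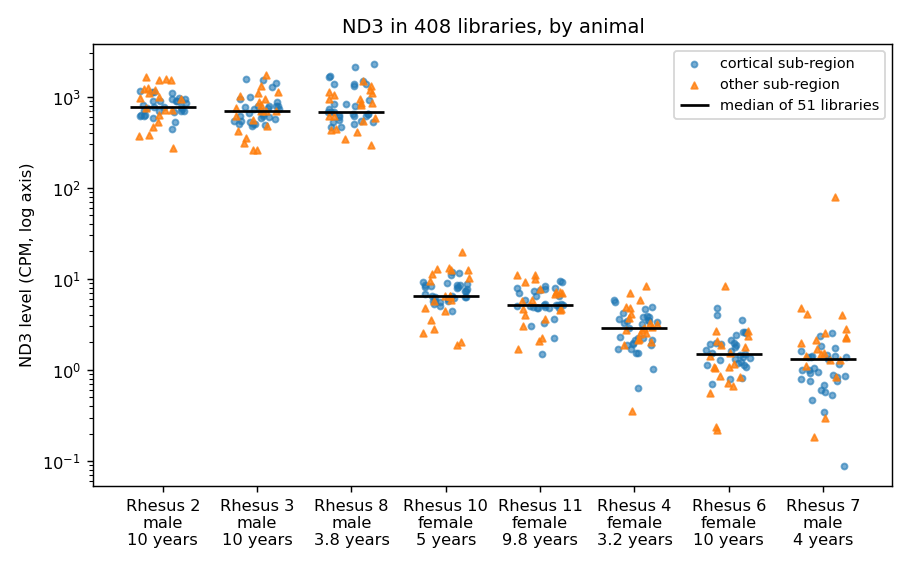
ND3 level in CPM (log axis) in each library, by animal, with sex and age; circles are cortical and triangles other sub-regions, and bars are medians of 51 libraries. The libraries of Rhesus 2, Rhesus 3 and Rhesus 8 all lie at or above 262 CPM, and those of the other animals at or below 19.7 CPM but for the caudate of Rhesus 7 at 78.2 CPM.

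The gap between the animals held in every sub-region. Rhesus 8, the lowest of the upper 3 by median, was above Rhesus 10, the next animal, in 51 of 51 sub-regions, and the ratio of their medians was 105. The lowest library of the upper animals was the pituitary of Rhesus 3, at 262 CPM. The highest of the other 5 animals was the caudate nucleus of Rhesus 7, at 78.2 CPM, and the next was the hippocampal field CA3 of Rhesus 10, at 19.7 CPM.

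ND3 was never at 0. In Rhesus 2 its counts ran from 3038 to 20783 per library, and in Rhesus 8 from 3352 to 22545. In Rhesus 6 they had a median of 17 (2 to 95), and in Rhesus 7 one of 14 (1 to 851). In 4 libraries the count was 3 or fewer, 2 of Rhesus 6 and 2 of Rhesus 7. The lowest was 1 count in the anterior superior occipital gyrus (aSOG) of Rhesus 7, which gives 0.088 CPM with an exact (Clopper-Pearson) 95% binomial interval of 0.0022 to 0.49. Such intervals cover counting error only, and the low end of the range in these animals is accordingly imprecise. The library kit kept strand, but the options for strand and overlap in the counting are not given in the sources used here, and parts of mitochondrial DNA also occur as near copies in nuclear chromosomes. The ND3 counts are therefore uncertain to the extent that reads of such copies were counted, or ND3 reads were lost in mapping. Neither was tested, so scarce ND3 here means few counts on its row.

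The animals did not sort by sex or by age stage alone. Among males the animal medians were 1.32, 687, 701 and 775 CPM, and among females they were 1.51, 2.91, 5.21 and 6.55 CPM. The 3 animals with high ND3 were all males, but the fourth male, Rhesus 7, had the lowest median of the 8. Mid-aged animals had medians from 1.51 to 775 CPM and young animals from 1.32 to 687 CPM, so the age stages overlapped. No test was made, because ND3 was chosen for this spread.

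Few other genes differed as much between animals by the ratio of animal medians. With 0.1 CPM added, the highest animal median of ND3 was 547 times the lowest, against a median of 1.504 over the 17121 genes past the filter on low counts. A ratio at least as large was found in 6 genes, ND3 included. Of the others, 3 were the Y-linked genes DDX3Y, USP9Y and RPS4Y1, with a median of 0 CPM in each of the 4 females, and 2 were rows without a symbol with a median of 0 CPM in each of the 4 males. These 5 genes separated the sexes, whereas ND3 cut across the males. They were picked out after their values were seen. With 0.1 CPM added, the ratio is limited by the highest median, so weakly expressed genes could not reach that of ND3. The Y-linked EIF1AY, RPS4Y2 and CYorf15A fell below it, though their median was 0 CPM in each female. Their highest animal medians were 30.8, 46.7 and 37.3 CPM.

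The nuclear partners of ND3 in complex I were far more even. Of 37 nuclear complex I genes listed, 21 could be matched to a row, and the ratio of the highest to the lowest animal median had a median of 1.52 and ran from 1.15 to 22.6 among them. NDUFA1, an accessory subunit encoded on the X chromosome, held the upper end and was singled out after its values were seen. Its animal medians were 0.54 CPM in Rhesus 2, 0.82 in Rhesus 3, 0.745 in Rhesus 10 and 0.56 in Rhesus 11. They were 14.4 CPM in Rhesus 4, 12.6 in Rhesus 6, 10.6 in Rhesus 7 and 14.4 in Rhesus 8. NDUFA1 thus split the animals as well, but along another line: Rhesus 8 was high in both genes and Rhesus 10 and Rhesus 11 were low in both, while the other 5 animals were high in 1 gene and low in the other.

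Without NDUFA1, no complex I gene exceeded a ratio of 2.59, that of NDUFB1, over the other 20 genes. The 8 matched nuclear complex IV genes ran from 1.34 to 1.99, the highest being COX6C. The 22 matched genes of mitochondrial transcription, RNA processing and DNA maintenance ran from 1.16 to 1.91, the highest being SLIRP, which with LRPPRC stabilises mitochondrial mRNAs. None of these nuclear lists contained a gene with a spread near that of ND3, which was chosen for its spread. With 0.1 CPM added, weakly expressed genes of the lists could not have reached its ratio. Among these were NDUFA1 and SLIRP, with highest animal medians of 14.4 and 23.9 CPM.

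Age stage and sex were tested for these lists, on counts summed over the 51 sub-regions of an animal, 4 animals against 4. Between mid-aged and young animals edgeR called none of 21544 genes (background 0%) at FDR < 0.1 and an absolute log2FC above 1, with 1150 genes at an unadjusted p under 0.05, and DESeq2 called 78. None of the 51 nuclear genes was called by either tool, and 0 of the 51 had an unadjusted p under 0.05. The largest difference was that of NDUFA1, at -1.93 ± 1.23 on the log2 scale (SE; edgeR FDR = 0.96). Between females and males 24 of 21544 genes (0.111%) were called, again without any of the 51, and NDUFA1 had a log2FC of 0.97 ± 1.22 (FDR = 1.00). Median log2FC of the complex I list were -0.07 for age and 0.02 for sex, beside 0.00 and 0.01 over all genes.

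Under the level set by the animal, ND3 varied between brain regions. Each region group was compared with the cortex of the same animal, with counts of a group's sub-regions summed within the animal, and the 15 comparisons share the cortex libraries. Over 16 groups the edgeR quasi-likelihood F of ND3 was 11.5 (FDR = 2.55e-16), beside a median of 29.01 over all genes, and 99.8% of the 17086 genes tested were called at FDR < 0.05. Over the 51 sub-regions taken singly F was 6.48 (FDR = 2.06e-27), where 99.8% of 17121 genes were called and 81.1% had a larger F. A small F can come from a wide spread as well as from a small difference. Without the caudate library of Rhesus 7 the 2 values of F were 14.4 (FDR = 1.94e-19) and 6.16 (FDR = 7.87e-26). At FDR < 0.05 it was lower than cortex in 3 groups, higher in 3, and not called in 9. In the 3 lower groups the log2FC without that library was -1.34 in the pituitary, -1.13 in the corpus callosum and -1.10 in the cerebellum, all still called.

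**Figure D2:**
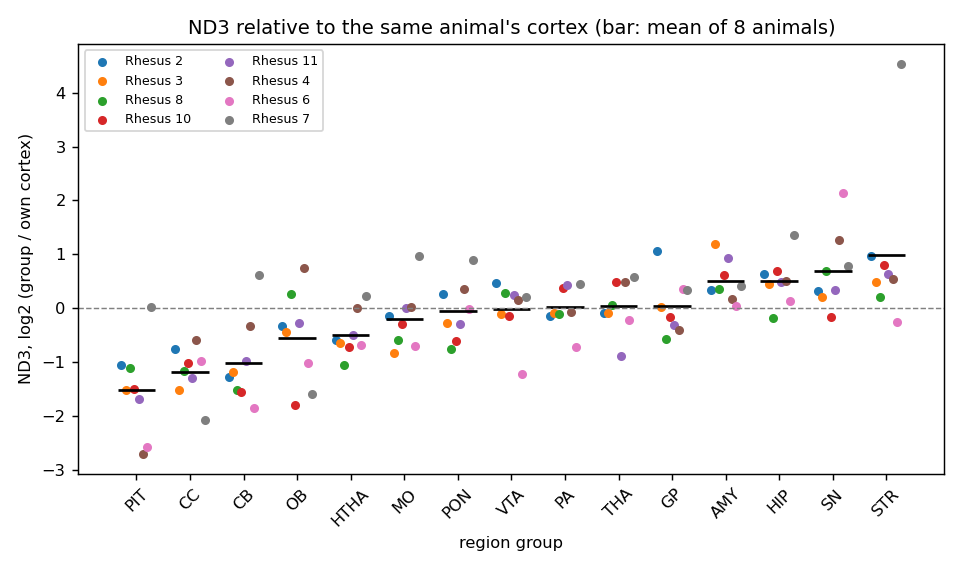
ND3 in 15 region groups relative to the cortex of the same animal (log2 ratio of CPM with 0.1 added), with 1 point per animal and bars at the mean of 8 animals. All 8 animals lie below their cortex in the corpus callosum (CC) and above it in the amygdala (AMY), and the striatum (STR) of Rhesus 7 stands alone at 4.54.

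ND3 was lowest in the pituitary (PIT), an endocrine gland below the hypothalamus. The log2 ratios to the own cortex ran from -2.71 in Rhesus 4 to 0.01 in Rhesus 7, with a median of -1.51 and a mean of -1.52 ± 0.87 (SD, n = 8). It lay below cortex in 7 of 8 animals. The fitted log2FC was -1.34 ± 0.30 (SE, FDR = 2.99e-05), a level 0.396 times that of cortex, where 41% of all genes were called lower and 40.1% higher. The pituitary counts behind it were 2 in Rhesus 6, 4 in Rhesus 4 and 16 and 17 in Rhesus 11 and Rhesus 7, so single ratios in these animals rest on few reads.

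Nuclear complex I genes were lower in the pituitary too, with 16 of 21 called lower, 1 higher and a median log2FC of -0.68, beside -0.02 over all genes. NDUFB9, an accessory subunit, had a median of 46.7 CPM there and 125 CPM in cortex, a log2FC of -1.48 ± 0.12 (SE, FDR = 1.73e-22). Of the 8 complex IV genes 5 were called lower and 1 higher, and NDUFA4, a complex IV subunit in spite of its name, fell from a median of 285 to 16.7 CPM. Of 22 genes of mitochondrial gene expression 8 were called higher and 10 lower, MTERF2 and FASTK being the most changed, both higher, with log2FC of 1.20 and 1.12. The 5 neuron markers summed to 357 to 496 CPM in the pituitary and 10066 to 11735 CPM in cortex, and the 5 astrocyte markers to 20.8 to 121 and 2579 to 2981 CPM. Their part in the ND3 difference was not tested.

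In the corpus callosum (CC), a white matter tract of axons and glia, ND3 was lower in every animal. Ratios ran from -2.07 in Rhesus 7 to -0.59 in Rhesus 4, with a median of -1.10 and a mean of -1.18 ± 0.46 (SD, n = 8). The log2FC was -1.11 ± 0.30 (SE, FDR = 0.000466), a level 0.462 times that of cortex, with 41.6% of all genes called lower and 37.9% higher. The value for Rhesus 7 rests on 2 counts.

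Complex I moved the same way there, with 17 of 21 nuclear genes called lower, 1 higher and a median log2FC of -0.59, against -0.06 over all genes. NDUFB5 went from a median of 171 CPM in cortex to 76.2 CPM in the tract, a log2FC of -1.20 ± 0.11 (SE, FDR = 1.63e-19), and NDUFA9 changed by -1.17. Of the complex IV genes 7 of 8 were lower and none higher, led by COX5A, at 45.4 against 122 CPM. Of the mitochondrial expression genes 6 were higher and 11 lower. POLG2, the accessory subunit of the mitochondrial DNA polymerase, was higher, with a log2FC of 1.10, and the RNA-binding protein gene GRSF1 was lower, with -1.02. Neuron markers summed to 202 to 653 CPM in the tract, and the 4 matched oligodendrocyte markers to 88469 to 116151 CPM against 2465 to 3210 CPM in cortex. Their part was not tested.

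The cerebellum (CB), from its cortex (CBC) and vermis (CBV), was the third group with low ND3. Ratios ran from -1.85 in Rhesus 6 to 0.61 in Rhesus 7, with a median of -1.23 and a mean of -1.01 ± 0.80 (SD, n = 8), and 7 of 8 animals were below cortex. The log2FC was -1.11 ± 0.28 (SE, FDR = 0.000347), 0.463 times cortex, where 35.4% of all genes were called lower and 33.2% higher.

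Here the nuclear genes of complex I did not move as a block. Of 21, 5 were called lower and 4 higher, with a median log2FC of -0.14 beside -0.03 over all genes. NDUFB5, with a median of 122 CPM in cerebellum and 171 in cortex, and NDUFB9 had the largest changes, -0.54 and -0.54. Of complex IV 4 of 8 were lower and none higher, COX5A (log2FC -0.66) and NDUFA4 (-0.62) most. MTERF2 and MTERF4, of the mitochondrial termination factor family, were higher by 1.04 and 0.97. Summed neuron markers ran from 8833 to 11497 CPM in the cerebellum, a range that overlaps that of cortex.

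ND3 was highest in the striatum (STR), the summed caudate nucleus (CN), putamen (PUT) and nucleus accumbens (ACb). Both this rank and the size of the difference rested on 1 library. Ratios ran from -0.25 in Rhesus 6 to 4.54 in Rhesus 7, with a median of 0.59 and a mean of 0.99 ± 1.48 (SD, n = 8), and 7 of 8 animals were above cortex. The log2FC was 1.37 ± 0.27 (SE, FDR = 7.46e-06), 2.58 times cortex, where 28.2% of genes were called higher and 27.9% lower. Without the caudate library of Rhesus 7 it was 0.67 ± 0.20 (FDR = 0.00281), or 1.59 times cortex. The mean ratio was then 0.66 ± 0.63, with Rhesus 7 at 1.91 from its putamen and accumbens. The substantia nigra then ranked above the striatum, with a mean ratio of 0.70 and a log2FC of 0.69. Without Rhesus 7 altogether the log2FC of the striatum was 0.51, still called. It was then below the 0.67 of the substantia nigra and the 0.62 of the amygdala.

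That caudate library held 851 ND3 counts, 78.2 CPM with an exact 95% binomial interval of 73.1 to 83.7, while the other 50 libraries of Rhesus 7 held 1 to 54 counts and at most 4.73 CPM. It stood 59.8 times above their median and at 5.10% of the highest caudate level among the other animals. Rows with at most 3 counts in every other library of Rhesus 7 but a median of 100 or more counts in another animal, and at least 100 in its caudate, numbered 2 for Rhesus 4 and 3 each for Rhesus 6, Rhesus 10 and Rhesus 11. None of them exceeded 3 counts in the caudate of Rhesus 7. No such row was found for Rhesus 2, Rhesus 3 or Rhesus 8, so the count could not be made against the animals with high ND3.

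Nuclear complex I genes showed no common direction in the striatum: 2 of 21 were called higher and 2 lower, with a median log2FC of 0.09 beside -0.00 over all genes. NDUFS3, a core subunit, had a median of 129 CPM against 76.3 in cortex, a log2FC of 0.65 ± 0.10 (SE, FDR = 7.87e-09). Complex IV had 4 of 8 genes higher and 1 lower, COX4I1 rising from a median of 262 to 371 CPM and COX7C from 199.7 to 266 CPM. Of the mitochondrial expression genes 6 were higher and 2 lower, with HSD17B10, a part of mitochondrial RNase P, at a log2FC of 0.55. Neuron markers summed to 3891 to 4850 CPM in the striatum, below the cortical range, and oligodendrocyte markers to 6429 to 11570 CPM, above it. Their part was not tested.

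The substantia nigra (SN), which holds midbrain dopamine neurons, was also above cortex. Ratios ran from -0.16 in Rhesus 10 to 2.14 in Rhesus 6, with a median of 0.52 and a mean of 0.70 ± 0.72 (SD, n = 8), and 7 of 8 animals were above. The log2FC was 0.69 ± 0.28 (SE, FDR = 0.0220), 1.61 times cortex, where 32.4% of genes were called higher and 36.8% lower. Rhesus 6 weighed on it with 95 counts, 8.33 CPM with an exact 95% interval of 6.74 to 10.2, against at most 4.81 CPM in its other libraries. Without Rhesus 6 the log2FC was 0.47 (FDR = 0.12), and without Rhesus 4 it was 0.64 (FDR = 0.052), so the call was lost in both cases. It was also lost with another filter on low counts, at 0.61 (FDR = 0.0553), and was firmer without the caudate library of Rhesus 7 (FDR = 0.00285).

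The nuclear respiratory genes were also raised in the substantia nigra. Of 21 complex I genes 13 were called higher and 1 lower, with a median log2FC of 0.37 against -0.06 over all genes, and of complex IV 7 of 8 were higher and none lower. NDUFA11 rose from a median of 48.7 to 81.4 CPM, a log2FC of 0.78 ± 0.12 (SE, FDR = 1.19e-08), and NDUFV3 changed by 0.72. COX7B went from 103 to 174 CPM and COX4I1 from 262 to 398 CPM. HSD17B10 was higher by 0.90 on the log2 scale and the mitochondrial poly(A) polymerase gene MTPAP was lower, with a log2FC of -1.16. Oligodendrocyte markers summed to 15942 to 33050 CPM in the substantia nigra, above the cortical range, and neuron markers to 5505 to 9229 CPM, below it. Their part was not tested.

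The amygdala (AMY) was above cortex in 8 of 8 animals, though by a small margin. Ratios ran from 0.05 in Rhesus 6 to 1.20 in Rhesus 3, with a median of 0.38 and a mean of 0.51 ± 0.39 (SD, n = 8). The log2FC was 0.65 ± 0.27 (SE, FDR = 0.0456), 1.57 times cortex, where 19% of genes were called higher and 20.7% lower. The call was lost with DESeq2 (FDR = 0.085), with another filter on low counts (FDR = 0.10) and without any of Rhesus 2, 3, 4, 8, 10 or 11, the log2FC then running from 0.47 to 0.70, and it was firmer without the caudate library of Rhesus 7 (FDR = 0.00817). No nuclear complex I gene was called higher and 2 of 21 were lower. Of the complex IV genes 0 of 8 were called. Neuron markers summed to 7399 to 9080 CPM in the amygdala, below the cortical range, and their part was not tested.

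The hippocampus (HIP) and hypothalamus (HTHA) lay close to the threshold. In the hippocampus, from the dentate gyrus, CA1 and CA3, ratios ran from -0.18 to 1.36 with a mean of 0.51 ± 0.45 (SD, n = 8). Its log2FC was 0.47 ± 0.26 (SE, FDR = 0.13), and 0.49 ± 0.20 (FDR = 0.0356) without the caudate library of Rhesus 7. In the hypothalamus ratios ran from -1.06 to 0.22 with a mean of -0.50 ± 0.42, and the log2FC was -0.62 ± 0.29 (FDR = 0.0575), or -0.62 ± 0.22 (FDR = 0.0124) without that library. With it left out, 4 groups were called lower and 4 higher. Backgrounds were 23.1% higher and 24.5% lower for the hippocampus and 27.8% and 30.2% for the hypothalamus. Complex I genes were mostly not called in either: 0 higher and 4 lower of 21 in the hippocampus, and 1 higher and 7 lower in the hypothalamus. NDUFS1, the largest core subunit, was lower in both, with medians of 96.5 and 89.7 CPM against 134 in cortex.

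In the other 7 groups ND3 was not called. The olfactory bulb (OB) spread widest among them, from -1.79 in Rhesus 10 to 0.74 in Rhesus 4, with a log2FC of -0.27 ± 0.28 (SE, FDR = 0.39). The medulla oblongata (MO) had a log2FC of -0.34 ± 0.29 (FDR = 0.29) and the pons (PON) one of -0.16 ± 0.28 (FDR = 0.64). The ventral tegmental area (VTA) stood at 0.09 ± 0.28, the globus pallidus (GP) at 0.09 ± 0.27, the entorhinal and perirhinal cortex (PA) at 0.04 ± 0.28 and the thalamus (THA) at 0.03 ± 0.28, all with FDR above 0.05. Without the caudate library of Rhesus 7 none of the 7 was called either. The medulla of Rhesus 6 had summed neuron markers of 373 CPM, whereas those of the other animals began at 5360 CPM.

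Among these groups, the nuclear complex I genes stood furthest from the background share in the pons and the olfactory bulb. In the pons 18 of 21 were called higher and 1 lower (backgrounds 30% and 34.2%), with a median log2FC of 0.44, and NDUFV3 rose from a median of 29.7 to 48.7 CPM. In the olfactory bulb 1 was higher and 14 were lower (32.5% and 33.5%), with a median of -0.34. The thalamus and the ventral tegmental area leaned the same way as the pons, with 38.1% of these genes higher and 9.52% lower in each. In the thalamus 8 were higher and 2 lower (26.7% and 31.5%), in the ventral tegmental area 8 and 2 (31.3% and 36.4%), and in the globus pallidus 8 and 6 (35.1% and 38.7%). In the medulla 3 were higher and 4 lower (32.3% and 36.1%), and in the entorhinal and perirhinal cortex 0 and 5 (17.3% and 20.1%). The difference between ND3 and these genes was not tested in any group.

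**Figure D3:**
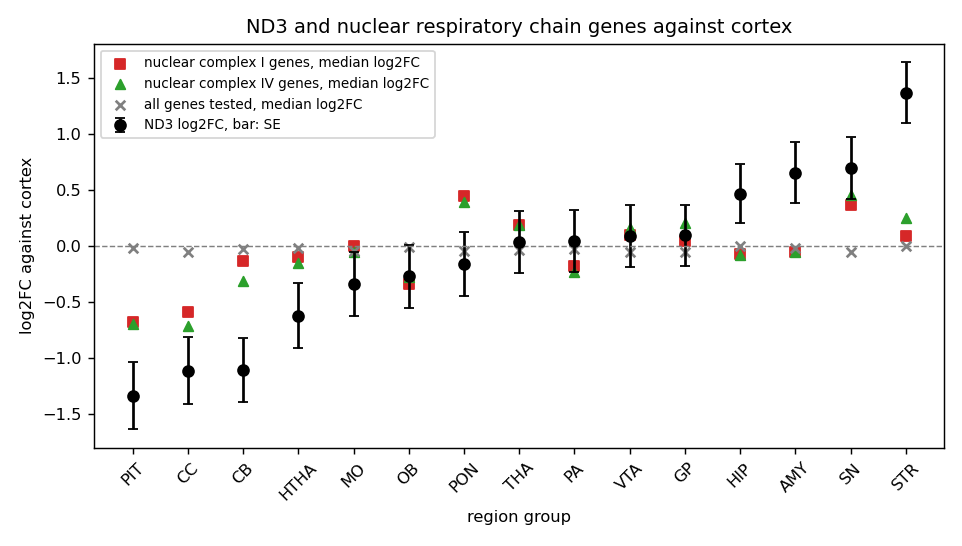
Fitted log2FC against cortex of ND3 (points, bars are SE) in 15 region groups, beside the median log2FC of 21 nuclear complex I genes (squares), 8 nuclear complex IV genes (triangles) and all 17086 genes tested (crosses). Both nuclear medians lie on the same side of 0 as ND3 in 11 of 15 groups and on the other side in 4 (AMY, HIP, PA and PON). Among the 11, ND3 was not called in OB, HTHA, MO, VTA, GP and THA. The median over all genes was negative in every group, and in MO the complex I median was -0.006, beside -0.042 over all genes. The ND3 values of PA, THA and GP near 0 changed sign under other settings.

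The order of the groups, from the lowest mean ratio to the highest, was PIT, CC, CB, OB, HTHA, MO, PON, VTA, cortex, PA, THA, GP, AMY, HIP, SN and STR. STR stood last only with the caudate library of Rhesus 7. Without it the mean ratio of STR was 0.66, below the 0.70 of SN. None of the 15 steps between neighbours exceeded the spread of that step over the 8 animals. The widest was from CB to OB or from GP to AMY, 0.46 and 0.47 on the log2 scale with SD of 1.21 and 0.72.

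Sub-regions taken singly gave the same ends of the scale. Relative to the median library of the same animal, ND3 was below in 8 of 8 animals in the pituitary, with a mean log2 ratio of -1.42 ± 0.81 (SD), in the cerebellar cortex, with -1.18 ± 0.56, and in the corpus callosum, with -1.08 ± 0.57. It was above in 8 of 8 animals in CA1, with 0.80 ± 0.51, and in the amygdala, with 0.61 ± 0.43. The caudate nucleus had the highest mean, 1.27 ± 1.86, which includes the 5.79 of Rhesus 7, and the other 7 animals ran from -0.08 to 0.99 there. The substantia nigra stood at 0.80 ± 0.77 and the accumbens at 0.78 ± 0.56. CA3 stood at 0.63 ± 0.58 and the putamen at 0.61 ± 0.89. Each of these was above in 7 of 8 animals.

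**Figure D4:**
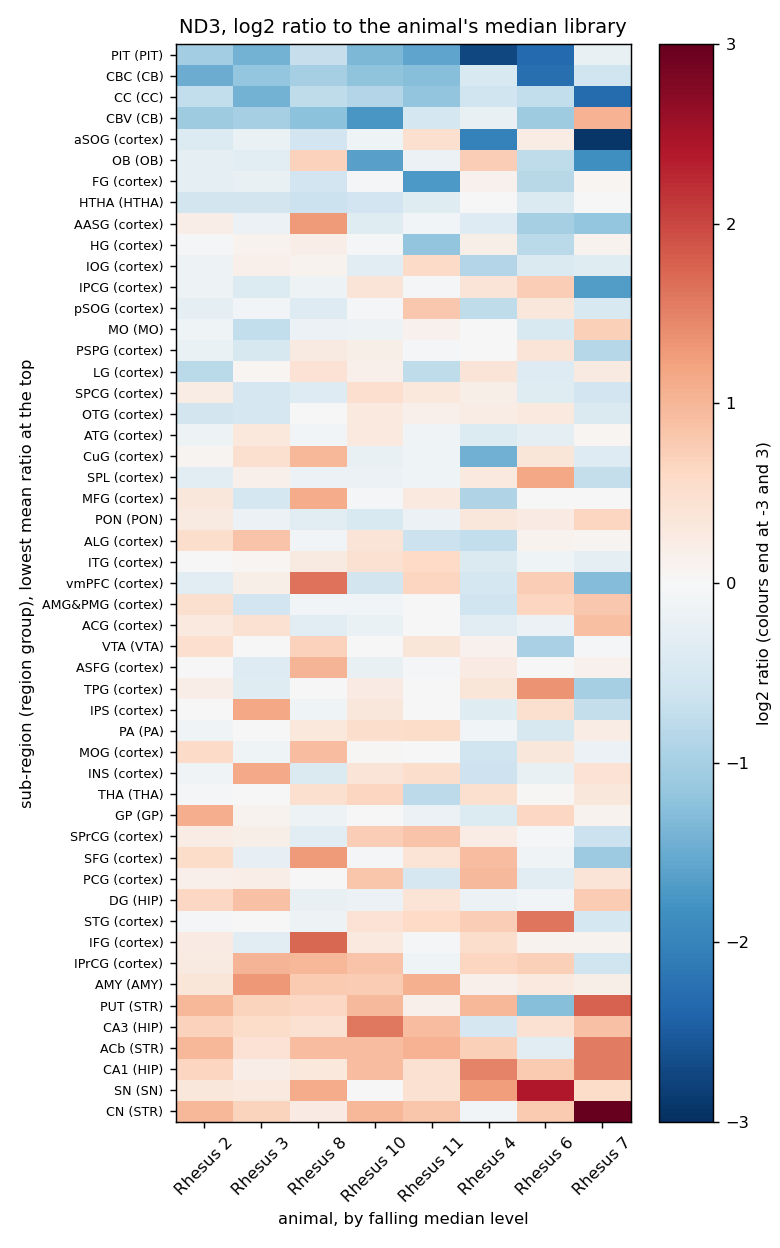
Log2 ratio of ND3 in each library to the median library of the same animal, for 51 sub-regions (rows, lowest mean at the top) and 8 animals (columns); red is above and blue below the animal's median. Rows of the pituitary (PIT), cerebellar cortex (CBC) and corpus callosum (CC) are blue in all 8 columns, and rows of CA1 and AMY are red in all 8.

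The cortex was more even. Means of its 31 sub-regions ran from -0.69 to 0.48, against -1.42 to 1.27 over the other 20. The 1.27 is that of the caudate nucleus with the library of Rhesus 7, and the next highest was 0.80 in the substantia nigra. As 31 of the 51 libraries behind each animal's median are cortical, cortical means lie near 0 in part by construction. Within the cortex the F of ND3 was 2.01 (FDR = 0.00374), beside a median of 2.80 over all genes, and 77.2% of 16039 genes were called. The inferior precentral gyrus (IPrCG), on the motor strip, had the highest mean, 0.48 ± 0.58 (SD, n = 8), above the animal's median in 6 of 8. The lowest, aSOG, had -0.69 ± 1.17, which includes the 1-count library of Rhesus 7 at -2.91. The inferior frontal gyrus (IFG) reached 2285 CPM in Rhesus 8, the highest value of any library.

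The regional profile was shared between animals to a modest degree. Over the 28 pairs of animals, Pearson's r of log2 ND3 across 51 sub-regions had a median of 0.37 (range 0.04 to 0.64), and Spearman's rho one of 0.31 (range -0.08 to 0.53). Without the caudate nucleus r ran from -0.06 to 0.62 with a median of 0.35. Rhesus 2 and Rhesus 10, with medians of 775 and 6.55 CPM, had the highest r. Sub-regions of a brain share its preparation and depth differs between libraries, so these values describe likeness and carry no test.

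Across all libraries the genes most like ND3 were Y-linked. By Pearson's r of log2(CPM + 1) the 5 highest were EIF1AY (0.72), RPS4Y2 (0.71), RPS4Y1 (0.71), CYorf15A (0.71) and DDX3Y (0.71), all with a median of 0 CPM in each female. Rhesus 7 set ND3 apart from them, with a DDX3Y median of 152 CPM, beside 153 to 188 in the other males. The lowest values belonged to rows without a symbol, ENSMMUG00000031200 (-0.77) and ENSMMUG00000039909 (-0.73) first, and these 2 had medians of at most 2.65 CPM in any animal. The points share 8 animals, so these coefficients are a description without a test.

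With the animal means of log2(CPM + 0.1) removed, other genes came closest. The 10 highest rows all lacked a symbol, while 22.1% of rows past the filter did. The first 2 were ENSMMUG00000028695, with r = 0.72, and ENSMMUG00000028699, with r = 0.68. All 10 identifiers lay between ENSMMUG00000028670 and ENSMMUG00000028703, a range that also holds that of ND3, ENSMMUG00000028680. Median levels of these 10 rows ran from 96.7 to 24736 CPM. With the animal means kept, their r ran from -0.26 to 0.53. Whether they are other mitochondrial genes was not tested. These rows were looked at after the data were seen. Of the 21 nuclear complex I genes 19 had a positive r, with a median of 0.28, and the 8 complex IV genes ran from 0.08 to 0.56 with a median of 0.39, whereas the median over all genes was -0.00. COX6C, at 0.56, and NDUFS6, at 0.51, were the highest of these lists. The genes of mitochondrial gene expression had a median of 0.01. Astrocyte and neuron markers had medians of 0.28 and 0.19, so likeness to ND3 within animals was not limited to genes of the respiratory chain. Without the caudate library of Rhesus 7 the medians were 0.30 for complex I, 0.40 for complex IV, 0.30 for astrocyte and 0.21 for neuron markers, and COX6C stood at 0.58.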

How the data were processed

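RNA-seq counts of 51 sub-regions from 8 animals were analysed; the members and gene lists were chosen with earlier results of these data known. The authors trimmed poor libraries with Trim Galore 0.4.4, mapped reads with HISAT2 2.0.5 to Mmul 8.0.1 and deposited HTSeq 0.6.1 counts per gene, unnormalized. ND3 was taken by its identifier; the identifiers the name table gives for the other 9 symbols match no row. Tests used edgeR 4.0.16 in R 4.3.3 (TMM, filterByExpr, quasi-likelihood F, Benjamini-Hochberg FDR over all genes tested). Region fits had the animal as a block, since each animal gave every region; deviations of an animal's region groups correlated with a median r of 0.32 to 0.51. Age and sex fits had the other factor as covariate. SE is the absolute log2FC over the square root of F. Within-animal ratios used log2(CPM + 0.1). In simulated data for 1 region contrast (cerebellum), 100 of 100 genes changed 2-fold and 100 of 100 changed 4-fold were recovered. There were 10 other calls among 14275 genes. Recovery for a gene with counts as low, or animals as far apart, as those of ND3 was not tested. Named genes were ND3, up to 2 genes per nuclear list and contrast (largest called change, at least 1 CPM, same direction in every animal) and the 5 most and least like ND3. Alternatives were DESeq2 1.42.0, its size factors, another filter, no block and left-out animals or libraries. ATAC-seq samples and assembled transcripts were not used here. Some genes that the naming rule selects are not reported here.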

Additional observations from a re-analysis of the deposited data

Results flagged for a closer look

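Of 66 sets of 8 animal values of ND3, 6 had an extreme animal whose gap to its neighbour passed Dixon's 95% critical value. The sets were 15 region groups relative to cortex and 51 sub-regions relative to the animal's median. Chance flags about 1 in 20 such sets where values are normally distributed. The sets share libraries, so the 6 flags are not independent of each other. The caudate nucleus of Rhesus 7 lay at 5.788 on the log2 scale, the other animals running from -0.08 to 0.99, and with it the striatum of Rhesus 7 lay at 4.542 relative to its cortex, the others from -0.25 to 0.97. The ventral tegmental area of Rhesus 6 lay at -1.219 relative to cortex, the others from -0.15 to 0.47, and at -0.965 relative to the animal's median. Both values come from 1 library with 7 ND3 counts. Its level was 0.72 CPM, with an exact 95% binomial interval of 0.29 to 1.49, beside an animal median of 1.51. Rhesus 8 was high in the inferior frontal gyrus, at 1.733 with the others at most 0.53, and in the anterior superior frontal gyrus, at 1.015 with the others at most 0.25. The cause was not tested for any of them.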

How the results depend on the processing

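The animal block decided every regional call of ND3: with no block, 0 of 15 groups were called in place of 6, and FDR was 0.997 over 16 groups, 1 over 51 sub-regions and 1 within the cortex. With the paired design kept, 4 to 8 groups were called under the alternatives run, 4 to 7 with each animal left out, and FDR over 16 groups then ran from 1.17e-18 to 1.38e-12. ND3 in the uncalled groups near 0 changed sign: PA was -0.0352 with the detection rule, -0.12 with no block and -0.013 to 0.11 with an animal left out; THA was -0.0385, -0.0465 and -0.026 to 0.14; and GP was -0.18 to 0.21 with an animal left out. Genes called for age numbered 78 with DESeq2, 5 in cortex alone and 0 to 4 with an animal left out (4 without Rhesus 3, 1 without Rhesus 7), and for sex 48 with DESeq2 and 19 to 28, none from the nuclear lists. Scaling on genes with a symbol gave ND3 medians from 1.51 to 917 CPM. Normalization without the mitochondrial rows was not run, since these rows could not be told by name; scaling on genes with a symbol, added after seeing the data as was leaving out single libraries, stood in for it and left each of the 15 groups on its side of the threshold (6 called). Median ND3 counts per library were 14 in Rhesus 7, 17 in Rhesus 6 and 31 in Rhesus 4, and 67 and 77 in Rhesus 11 and Rhesus 10. Depth limits single values in these animals.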
